A study of Mus musculus with 2 samples.

Results

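The genes described here encode the constitutive proteasome. They were taken by symbol, as every gene of the feature table whose name is Psma, Psmb, Psmc or Psmd followed by a digit, leaving out the immunoproteasome subunits Psmb8, Psmb9 and Psmb10. The rule found 37 of 32285 genes. By role they were 7 alpha and 7 beta subunits of the 20S core, 6 ATPases, 3 scaffold and receptor subunits and 8 lid subunits of the 19S cap, 3 assembly chaperones of the cap (Psmd5, Psmd9, Psmd10), 2 subunits known mainly from testis and thymus (Psma8 and Psmb11), and Psmc3ip. The last encodes a meiotic recombination factor and no proteasome subunit, and it was kept because the rule holds it.

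The study compared splenic regulatory T cells (Tregs) of 7-day-old C57BL/6J mice with and without Zfp335, a zinc finger transcription factor. The WT mice carried Foxp3-Cre alone, and the KO mice carried Foxp3-Cre with Zfp335 fl/fl, so both groups had the Cre. The Cre is fused to YFP and follows an IRES at Foxp3, so that Cre is made from the Foxp3 locus. YFP+7AAD- cells were sorted, with a CD4+ gate stated in the study's methods, and 1 single-cell library per genotype was made with the 10x Chromium Single Cell V3 chemistry, with the number of pooled mice not given in the sources used here.

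The proteasome is the large protease that degrades ubiquitin-tagged proteins. In its 20S core, rings of alpha subunits gate a chamber lined by beta subunits, of which Psmb5, Psmb6 and Psmb7 carry the active sites. The 19S cap binds the ubiquitin chain, removes it, and unfolds and feeds in the substrate with its ring of ATPases. Lymphocytes and interferon-exposed cells replace the catalytic beta subunits with Psmb8, Psmb9 and Psmb10, the immunoproteasome.

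The WT library held 14524 barcodes with 64567991 UMIs (unique molecular identifiers, each standing for 1 captured RNA molecule), and the KO library held 18134 barcodes with 65480052 UMIs. Over 5% mitochondrial UMIs were found in 44.6% of WT and 24.1% of KO barcodes, and these were left out, as were barcodes with under 300 genes and predicted doublets. This left 7840 WT and 12790 KO barcodes, with median depths of 5060 and 2725 UMIs, and 27 barcode sequences were shared between them. Zfp335 had 422 UMIs in WT and 57 in KO over these barcodes, a KO to WT ratio of 0.132 after scaling (95% interval 0.0985 to 0.175). Clustering without any proteasome gene gave 15 clusters, of which 1 and 6 were resting Treg-like (2768 WT and 5210 KO barcodes), 3 effector Treg-like (1725 and 110) and 4 activated Treg-like (469 and 977). Clusters 5 (563 and 700) and 7 (642 and 340) were high in cell-cycle genes and are given by number, since the leading genes of cluster 7 include 4 effector markers. Foxp3 itself had a UMI in 20.5% of WT and 19.8% of KO resting barcodes, against 6.73% and 7.02% in the neutrophil-like cluster 12 of the same sort, with median depths there of 15573 and 15438 UMIs. A further 1014 WT and 3514 KO barcodes sat in the shallow cluster 2, led by globin and neutrophil granule genes. The erythroid-like (9 and 11), neutrophil-like (12 and 13) and B cell-like (14) clusters, which a CD4+ gate would remove, were used only as a contrast.

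Levels are given as CPM, the summed UMIs of a gene per 1000000 UMIs of the same barcodes. Each genotype had a single library, and the genotypes were therefore not tested against each other. Every interval is a 95% interval for counting error only and says nothing of the spread between mice. A ratio was read only where a gene had at least 200 UMIs over the 2 sums compared, and a gene was counted as higher where its level was at least 25% greater and as lower where its ratio was 0.8 or less.

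Proteasome genes made up 0.700% of all UMIs in WT and 0.731% in KO. Among the Treg-like clusters and clusters 5 and 7, their summed level was lowest in the resting clusters and higher in the effector, activated and cell-cycle-high clusters in both libraries. In WT, the sum was 5293 CPM (5249 to 5336) in cluster 1, 6491 CPM (6445 to 6536) in the effector cluster, 8018 CPM (7940 to 8096) in the activated cluster and 8529 CPM (8466 to 8593) in cluster 7. In KO, the sums were 6166 CPM (6128 to 6204), 7643 CPM (7439 to 7851), 9141 CPM (9077 to 9206) and 9135 CPM (9027 to 9244) in the same order. The KO sum was thus the larger one in each of these clusters, and the activated cluster and cluster 7 of KO did not differ beyond counting error. In cluster 5 the sums were 8108 CPM in WT and 8170 CPM in KO, with overlapping intervals.

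**Figure D1:**
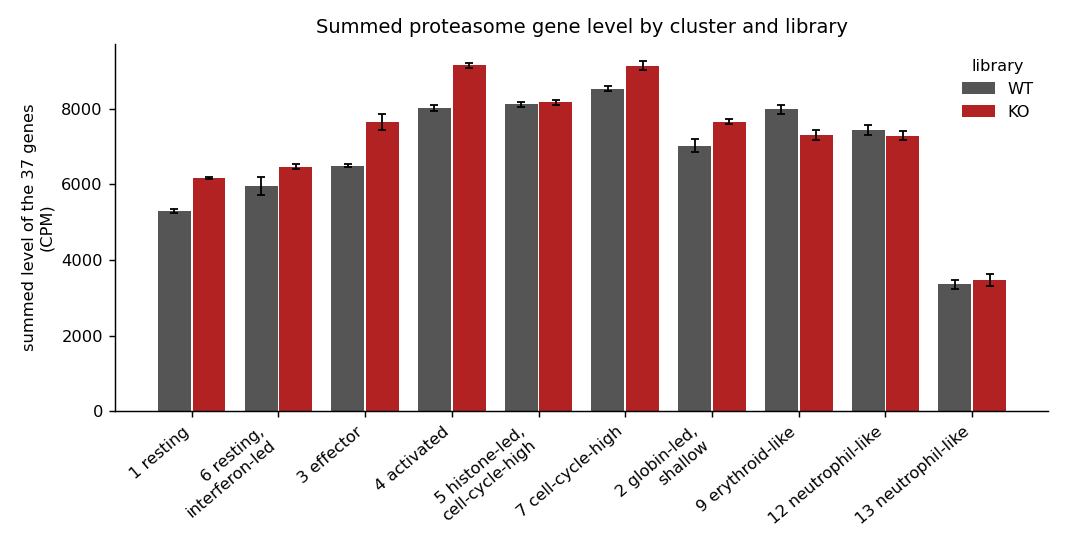
Summed level of the 37 genes in CPM, for 10 clusters, with WT in grey and KO in red. Bars start at 0 and the error bars are 95% Poisson intervals of the summed UMIs. The KO bar is the taller one in clusters 1, 6, 3, 4 and 7, whereas the bars of cluster 5 are nearly level at 8108 and 8170.

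In resting Treg-like barcodes, most proteasome genes had a higher level in KO. The summed level was 5316 CPM in WT and 6232 CPM in KO, a ratio of 1.17 (1.16 to 1.18). Of the 37 genes, 34 had enough UMIs, and 31 of these were higher in KO and 3 lower. Of all genes with enough UMIs, 41.2% had a log2 ratio above 0. By the 25% rule 8 counted as higher and 1 as lower, beside 8.04% higher and 24.4% lower of all 8150 genes with enough UMIs. The median log2 ratio of the proteasome genes was 0.22, and that of all genes was -0.07. The interval lay above 1 for 29 proteasome genes and below 1 for 3, and the same count was not made over all genes. At 1.5-fold, 0 proteasome genes were counted in either direction.

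The alpha ring genes Psma1 to Psma7, which form the gated outer ring of the core, were all higher in KO, by log2 0.10 to 0.37, with a median of 0.28. Psma1 stood at 118 CPM in WT and 152 CPM in KO, Psma2 at 277 and 347 CPM, and Psma6 at 150 and 193 CPM, and these 3 passed the 25% line. Psma7, the alpha gene with the most UMIs, stood at 470 and 532 CPM, and Psma4 moved least, from 257 to 275 CPM.

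Of the catalytic beta genes, Psmb5, which has the chymotrypsin-like activity, was at 204 CPM in WT and 264 CPM in KO, a ratio of 1.30 (1.23 to 1.36). Psmb6, the caspase-like subunit, was at 212 and 252 CPM, and Psmb7, the trypsin-like subunit, at 92.8 and 105 CPM. Psmb5 alone of these passed the line. Among the non-catalytic beta genes, which complete the same rings, Psmb2 was at 141 and 191 CPM (1.35, 1.28 to 1.43) and Psmb3 at 261 and 326 CPM, just past the line at 1.251-fold. Psmb1 (424 and 487 CPM) and Psmb4 (272 and 310 CPM) were higher in KO by less than that.

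The ATPase genes Psmc1 to Psmc6, whose products form the ring that unfolds the substrate, moved as a narrow group. All 6 were higher in KO by log2 0.19 to 0.30 and none passed the line. Psmc3, with the most UMIs of the group, was at 195 CPM in WT and 225 CPM in KO, and Psmc1, with the fewest, at 77.0 and 91.8 CPM.

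The widest spread was in the remaining cap genes. Psmd3, a lid subunit, had the highest ratio of all, at 61.9 CPM in WT and 91.8 CPM in KO (1.48, 1.36 to 1.62). Psmd11, another lid subunit, was at 74.1 and 99.0 CPM (1.34, 1.23 to 1.45), and Psmd7 was just under the line at 1.244-fold (135 and 168 CPM). Psmd12, also of the lid, went the other way, at 121 CPM in WT and 87.0 CPM in KO, a ratio of 0.716 (0.667 to 0.769). It was the only proteasome gene past the line in that direction. Lid genes therefore held both ends of the list, with log2 ratios from -0.48 to 0.57 around a median of 0.22. The other 5 lid genes, Psmd6, Psmd7, Psmd8, Psmd13 and Psmd14, were higher in KO by less than 25%, with Psmd8, of the most UMIs in the lid, at 198 and 231 CPM. Of the scaffold and receptor group, Psmd1, a large scaffold protein of the base, was at 63.8 and 54.8 CPM (0.859, 0.782 to 0.945), while Psmd2, the second scaffold, was at 93.5 and 107 CPM and the ubiquitin receptor gene Psmd4 at 251 and 276 CPM. Psmd5, a chaperone of cap assembly, was lower in KO, at 19.4 and 16.1 CPM (0.829, 0.697 to 0.987), whereas the chaperone genes Psmd9 and Psmd10 were at 43.1 and 47.5 CPM and at 39.0 and 42.8 CPM.

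Psmc3ip, Psma8 and Psmb11 had too few UMIs for a ratio in resting barcodes. Psmc3ip had 57 UMIs in WT and 107 in KO, Psma8 had 6 and 4, and Psmb11 had 2 and 4.

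**Figure D2:**
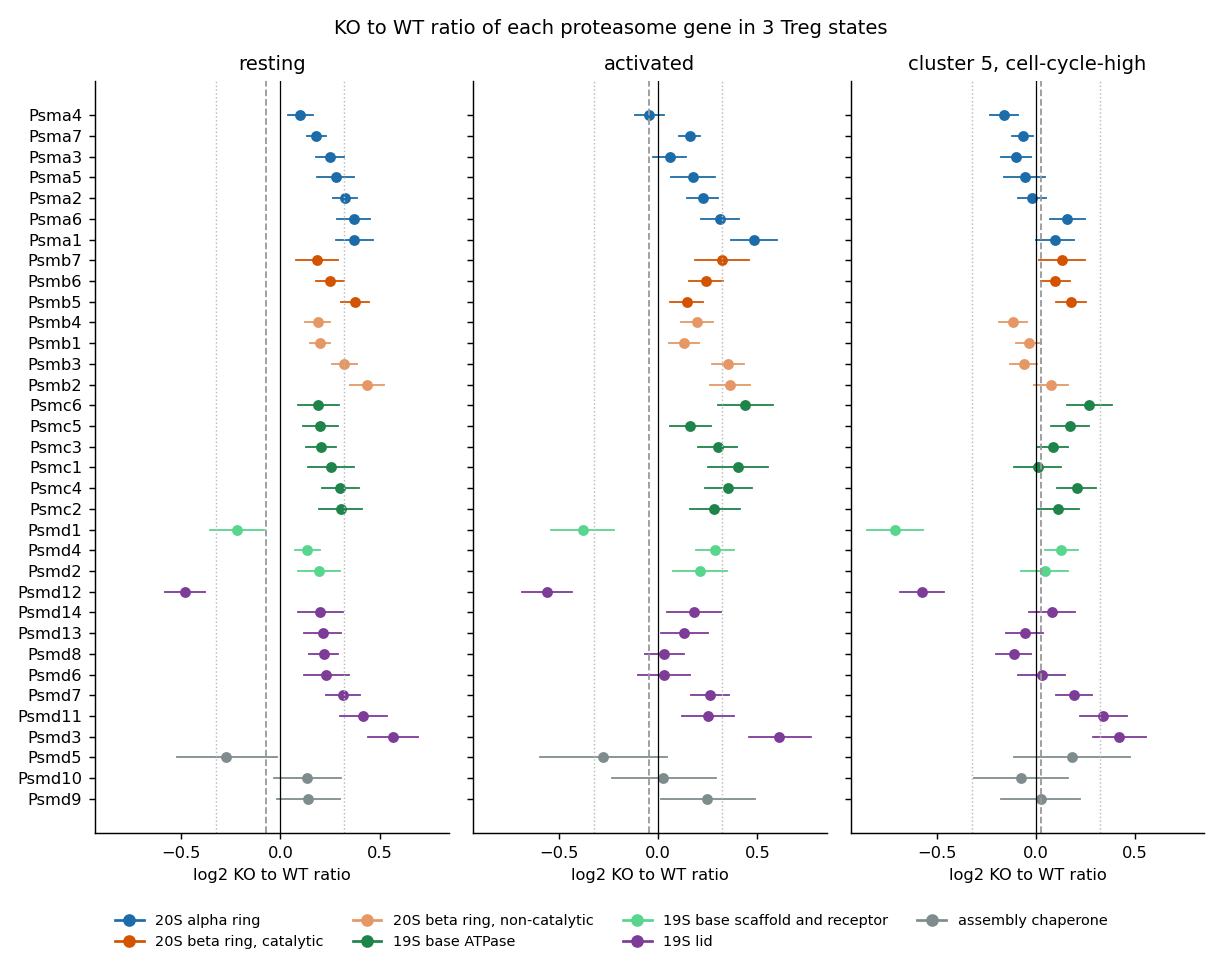
KO to WT ratio (log2) of each gene with at least 200 UMIs in resting barcodes, shown for resting, activated and cluster 5 barcodes, with genes ordered by role and then by their resting ratio. Points are ratios, lines are 95% counting intervals, dotted lines mark the 25% line and its inverse and the dashed line is the median of all genes. Most points lie right of 0 in the first 2 panels and around 0 in cluster 5, while Psmd12 and Psmd1 lie left of 0 in all 3 panels.

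The 37 genes lie on 16 chromosomes. Psmd12 (chr11:107479484-107504362), Psmd3 (chr11:98682554-98695979) and Psmd11 (chr11:80428615-80473248) all lie on the plus strand of chromosome 11 in GRCm38, and Psmd1 on the plus strand of chromosome 1 (chr1:86064387-86139151). Psmd12 overlaps Gm11722 and Psmd1 overlaps Gm21972, Gm22786 and Gm37914 on the same strand, and 8 of the 37 genes have such an overlap. What these overlaps do to the UMIs of Psmd12 and Psmd1 was not tested.

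What the genes share at their starts was described from RefSeq promoters of GRCm38.p6, 300 bases from 250 before to 50 after the start site. RefSeq windows were matched for 30 of the 37 genes and not for Psma8, Psmb1, Psmb2, Psmb7, Psmc3, Psmd3 and Psmd7. Letters were searched on both strands. The ETS core CCGGAAG was in 10 of the 30 windows (33.3%), against 9.12% of all 27025 windows. The GC box GGGCGG was in 60.0% against 35.9%, and the antioxidant response element core TGANNNNGC in 56.7% against 41.4%. The palindrome arm GCGCANGC of the nuclear respiratory factor NRF1 was in 23.3% against 10.1%. That factor is the product of the gene Nrf1 and not of Nfe2l1, whose product is also called NRF1. CCAAT (43.3% against 37.9%) and the E-box CACGTG (6.67% against 7.24%) stood closer to all windows. The proteasome windows had a median GC content of 57.0%, against 52.7% for all windows, and GC-rich letters are found more often in GC-rich sequence.

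Windows are shown for the genes Psmd12 and Psmd1, which were lower in KO, and for Psmd11 and Psmb5, which were higher, chosen after their values were seen. Capitals mark the antioxidant response element core, the GC box and the ETS core on either strand. Each is written 5′ to 3′ on the strand of its gene, at chr11:107479278-107479577 (+) for Psmd12, chr1:86064369-86064668 (+) for Psmd1, chr11:80428365-80428664 (+) for Psmd11 and chr14:54617946-54618245 (-) for Psmb5.
Psmd12: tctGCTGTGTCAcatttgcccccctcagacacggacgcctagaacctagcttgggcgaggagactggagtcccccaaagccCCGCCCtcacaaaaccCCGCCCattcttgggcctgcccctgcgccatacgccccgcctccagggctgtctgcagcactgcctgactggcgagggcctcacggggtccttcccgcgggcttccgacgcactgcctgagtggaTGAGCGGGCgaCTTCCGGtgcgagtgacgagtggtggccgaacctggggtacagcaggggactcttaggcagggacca
Psmd1: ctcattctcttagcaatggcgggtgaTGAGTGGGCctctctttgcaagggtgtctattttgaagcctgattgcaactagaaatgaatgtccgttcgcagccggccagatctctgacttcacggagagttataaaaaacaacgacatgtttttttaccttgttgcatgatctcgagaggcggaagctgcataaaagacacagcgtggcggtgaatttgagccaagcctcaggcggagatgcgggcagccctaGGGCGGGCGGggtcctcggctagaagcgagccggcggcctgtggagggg
Psmd11: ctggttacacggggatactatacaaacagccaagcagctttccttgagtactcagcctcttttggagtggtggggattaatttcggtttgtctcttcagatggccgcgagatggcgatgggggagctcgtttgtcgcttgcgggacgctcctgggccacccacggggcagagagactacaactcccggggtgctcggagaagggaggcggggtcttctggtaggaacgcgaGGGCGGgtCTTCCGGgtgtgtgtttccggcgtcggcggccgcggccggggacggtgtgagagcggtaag
Psmb5: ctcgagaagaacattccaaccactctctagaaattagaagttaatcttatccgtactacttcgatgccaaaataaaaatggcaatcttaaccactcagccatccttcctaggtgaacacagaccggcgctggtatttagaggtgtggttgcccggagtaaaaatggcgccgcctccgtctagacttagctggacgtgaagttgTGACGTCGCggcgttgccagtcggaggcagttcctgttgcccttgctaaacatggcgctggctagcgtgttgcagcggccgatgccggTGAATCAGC
Psmd12 and Psmd11, which stood at opposite sides of the list, both held a GC box and an ETS core. The ETS core started at -17 from the start site in Psmd12 and at -11 in Psmd11, on the minus strand of both windows. Psmd12, Psmd1 and Psmb5 held the antioxidant response element core, and Psmd11 did not. A match of letters is a description of the window and not a binding site.

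Across the other Treg clusters the same genes were compared again, each time between the same 2 libraries. In activated barcodes, 35 genes had enough UMIs, with a median log2 ratio of 0.21 against -0.04 for all 5832 genes. There, 8 were counted as higher and 2 as lower, beside 9.84% and 18.7% of all genes. In effector barcodes the median over 34 genes was 0.22 against -0.04, with 11 higher and 1 lower beside 15.2% and 23.7% of all genes. The KO side of that comparison rests on 110 barcodes. In cluster 7 the median over 34 genes was 0.15 against 0.00, with 7 higher and 3 lower beside 19.2% and 20.6%, and in cluster 5 the median over 35 genes was 0.04 against 0.03, with 2 higher and 2 lower beside 17.2% and 14.9%. The proteasome genes thus stood above the middle of all genes in resting, activated, effector and cluster 7 barcodes and near it in cluster 5. The set of all T-lineage barcodes also holds clusters 2, 8, 10 and 15, led by globin, granule or macrophage genes, with 1137 WT and 4705 KO barcodes. Erythroid markers over this set summed to 478 CPM in WT and 3319 CPM in KO, with 8 of 8 higher, and neutrophil markers to 326 and 843 CPM, with 8 of 8 higher. Over this set the median over 35 genes was 0.09 against -0.06, with 1 higher and 2 lower beside 11.3% and 21.6%.

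Of the 34 genes with enough UMIs in all of the 5 states, 18 (52.9%) were higher in KO in each state and 2 (5.88%), Psmd12 and Psmd1, were lower in each. Of all 5025 genes with enough UMIs in the 5 states, 15.9% were higher in each and 17.2% lower in each. Psmd12 was at 190 CPM in WT and 129 CPM in KO in activated barcodes (0.678, 0.621 to 0.740), at 202 and 136 CPM in cluster 5 (0.672, 0.622 to 0.725) and at 198 and 125 CPM in cluster 7 (0.630, 0.562 to 0.706). In effector barcodes its levels of 142 and 125 CPM did not differ beyond counting error (0.878, 0.699 to 1.09). Psmd12 was lower in KO in clusters of other lineages too, with a ratio of 0.651 (0.552 to 0.765) in the erythroid-like cluster 9 and 0.658 (0.545 to 0.792) in the neutrophil-like cluster 12. T-lineage markers summed to 370 CPM in WT and 778 CPM in KO in cluster 9, and to 317 and 341 CPM in cluster 12. Their part in these ratios was not tested. Zfp335 had 14 UMIs in WT and 2 in KO in cluster 9 (0.198, 0.0219 to 0.863), and 16 and 9 in cluster 12 (0.532, 0.207 to 1.28). Psmd1 was at 116 and 89.3 CPM in activated barcodes (0.768, 0.689 to 0.857), at 133 and 81.2 CPM in cluster 5 (0.611, 0.554 to 0.674) and at 116 and 89.4 CPM in cluster 7 (0.774, 0.673 to 0.887). In effector barcodes its levels of 74.0 and 66.0 CPM did not differ beyond counting error (0.892, 0.649 to 1.20). In clusters 9 and 12 its ratios of 0.958 (0.799 to 1.15) and 0.929 (0.767 to 1.13) had intervals that held 1.

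Psmd3 kept a higher level in KO in each of the 5 states. It was at 93.0 CPM in WT and 142 CPM in KO in activated barcodes (1.53, 1.37 to 1.70), at 66.6 and 115 CPM in effector barcodes (1.72, 1.35 to 2.17), at 92.7 and 124 CPM in cluster 5 and at 88.8 and 140 CPM in cluster 7. In the erythroid-like cluster 9 its levels of 128 and 124 CPM were within counting error of each other. Psmd11 was higher in KO by 1.19-fold in activated barcodes, 1.53-fold in effector barcodes, 1.26-fold in cluster 5 and 1.43-fold in cluster 7. Psmb2, in contrast, was 1.29-fold higher in activated barcodes but 1.06-fold (0.994 to 1.12) in cluster 5. Of the ATPase genes, Psmc6 was higher by 1.14-fold in resting barcodes and by 1.36-fold in activated barcodes (121 and 165 CPM), and the median ratio of the ATPase genes was log2 0.23 and 0.33 in these states.

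The alpha ring and the non-catalytic beta genes had medians of log2 0.28 and 0.26 in resting barcodes and of -0.06 and -0.05 in cluster 5. Catalytic beta genes and ATPases had 0.25 and 0.23 in resting barcodes and 0.13 and 0.14 in cluster 5. In the erythroid-like cluster 9 the median over 32 genes was -0.13, near the -0.10 of all 2471 genes. There, 0 were counted as higher and 4 as lower, beside 9.47% and 19.3% of all genes. In the neutrophil-like cluster 12 the median over 31 genes was 0.01 against -0.01, with 1 higher and 2 lower beside 6.17% and 10.7%.

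Within each library, the proteasome genes were then set against their own resting level. In the activated cluster, 30 of 34 genes in WT were at least 25% above resting and 0 below, with 29.6% of all genes above and 36.1% below. In KO the count was 30 of 35 above and 0 below, beside 26.0% and 34.2%. The median log2 ratios were 0.57 and 0.61. Cluster 7 gave 32 of 35 in WT and 28 of 34 in KO (medians 0.71 and 0.60), beside 29.6% and 25.7% of all genes above and 32.8% and 23.7% below. Cluster 5 gave 30 of 35 and 27 of 35 (0.67 and 0.51), beside 29.9% and 27.1% above and 37.4% and 30.3% below, and the effector cluster 10 of 34 and 16 of 34 (0.28 and 0.29), beside 17.6% and 22.2% above and 20.3% and 20.5% below. Each of these counts out of 35 includes Psmc3ip, which is no subunit and was counted as above resting. No proteasome gene was counted below resting in these 4 clusters. Clusters 4, 5 and 7 are also deeper than the resting clusters, with medians of 9571, 15065 and 11109 UMIs in WT against 3847 in cluster 1, and the same comparison at equal depth is given below.

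Between the groups of subunits the rise in the activated cluster was smallest in the chaperones. The alpha ring rose by a median log2 of 0.75 in WT and 0.67 in KO, with 7 of 7 genes past the line in both. The ATPases had 0.50 and 0.60 with 6 of 6 in both, and the lid had 0.66 and 0.64 with 8 of 8 and 7 of 8. The chaperone genes had 0.05 and 0.16 with 1 of 3 in both, Psmd5. Psmd7, a lid subunit, rose most among the subunits, from 135 to 266 CPM in WT (1.97, 1.83 to 2.13) and from 168 to 318 CPM in KO (1.90, 1.81 to 2.00). Psma7 rose from 470 to 847 CPM and from 532 to 946 CPM, and Psmd11 from 74.1 to 142 CPM and from 99.0 to 169 CPM. Psmb5 rose from 204 to 349 CPM in WT and from 264 to 386 CPM in KO.

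A few genes stayed near their resting level in both libraries. Psmb1, a non-catalytic beta subunit, was at 424 CPM in resting and 457 CPM in activated barcodes of WT, and at 487 and 500 CPM in KO. Psmd4, the ubiquitin receptor, was at 251 and 258 CPM in WT and at 276 and 316 CPM in KO. Psmd10, a chaperone also known as gankyrin, was at 39.0 and 38.2 CPM and at 42.8 and 39.0 CPM. In cluster 7 the ATPase gene Psmc1 rose most of the subunits, from 77.0 to 162 CPM in WT (2.10, 1.92 to 2.29) and from 91.8 to 204 CPM in KO (2.23, 2.03 to 2.44). Psmd5 was 0.978-fold its resting level in cluster 7 of WT (0.791 to 1.21) and 1.51-fold in that of KO (1.15 to 1.95). Psmc3ip, the gene that is no subunit, rose from 5.09 to 22.8 CPM in activated barcodes of KO, and in WT, with too few UMIs for a ratio to be read, it was at 5.10 and 21.9 CPM.

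**Figure D3:**
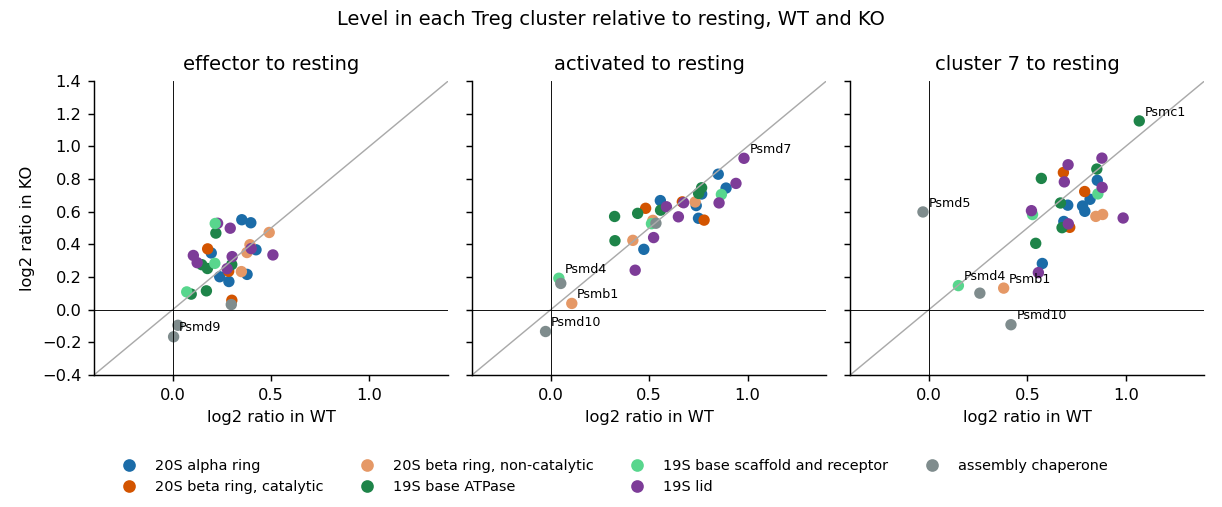
Level of each gene in the effector cluster, the activated cluster and cluster 7 relative to resting barcodes of the same library (log2), with WT on the x axis and KO on the y axis, coloured by role. Each point is 1 gene with at least 200 UMIs in both comparisons and the diagonal marks equal ratios. In the activated cluster and cluster 7 most points lie above 0 in both libraries, with Psmb1, Psmd4 and Psmd10, which are labelled, near 0 in the activated panel.

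The balance between constitutive and immunoproteasome catalytic genes was taken as the UMIs of Psmb5, Psmb6 and Psmb7 over those of Psmb8, Psmb9 and Psmb10 in the same barcodes. It is a ratio of UMIs of different genes, and is compared between clusters rather than read as a ratio of proteins. In resting barcodes it was 0.444 in WT (0.430 to 0.458) and 0.412 in KO (0.404 to 0.421). Immunoproteasome genes summed to 1147 CPM in WT and 1508 CPM in KO there, a ratio of 1.31 (1.29 to 1.34), and thus were higher in KO beside the constitutive genes. The 2 resting clusters differed, however. In cluster 1 alone the WT balance was 0.454 (0.440 to 0.469) and the KO balance 0.460 (0.449 to 0.471), with overlapping intervals, and in the interferon-led cluster 6, which held 81 WT and 1035 KO barcodes, it was 0.284 (0.243 to 0.330) and 0.306 (0.294 to 0.319). The lower pooled value of KO thus goes with the larger share of cluster 6 in that library. Cluster 6 is led by interferon-induced genes such as Ifit1 and Ifit3.

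Constitutive catalytic genes weighed more in activated barcodes, where WT had a balance of 0.610 (0.587 to 0.634) and KO one of 0.655 (0.636 to 0.673). In effector barcodes it was 0.434 and 0.564 (0.506 to 0.629), in cluster 5 0.563 and 0.562, and in cluster 7 0.521 and 0.600. By pair, Psmb5 to Psmb8 was at 0.267 in WT and 0.274 in KO of resting barcodes and at 0.391 and 0.401 of activated barcodes. Psmb6 to Psmb9 was at 1.254 and 1.03 and then at 1.84 and 1.81, and Psmb7 to Psmb10 at 0.430 and 0.351 and then at 0.497 and 0.614. The erythroid-like cluster 9 stood at 2.30 (2.11 to 2.51) in WT and 1.29 (1.19 to 1.41) in KO, above every T cell cluster shown. In the same cluster T-lineage markers summed to 370 CPM in WT and 778 CPM in KO, with 6 of 6 higher, and resting Treg markers to 171 and 484 CPM, with 8 of 8 higher, and their part in the balance was not tested.

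**Figure D4:**
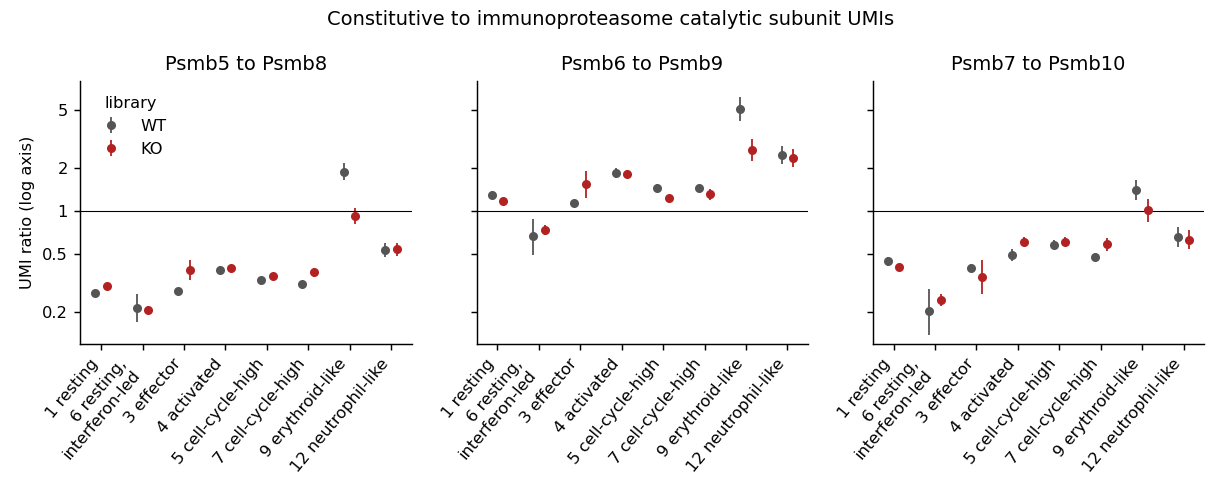
UMIs of each constitutive catalytic gene over those of the immunoproteasome gene that replaces it, on a log axis, for 8 clusters with WT in grey and KO in red. Error bars are 95% counting intervals and the line marks equal UMIs. The interferon-led cluster 6 has the lowest points among the T cell clusters in each panel, and the erythroid-like cluster 9 has the highest point of each library in each panel.

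Of 40 other genes of the pathway that were listed, 38 were in the feature table and 37 had enough UMIs in resting barcodes. Their median log2 KO to WT ratio was 0.09, with 11 higher and 6 lower (29.7% and 16.2% of the 37), beside the 8.04% and 24.4% of all genes. Among the core assembly chaperones, Psmg1, Psmg3 and Psmg4 were higher in KO by 1.31-, 1.28- and 1.254-fold, while Psmg2, the partner of Psmg1, was at 26.7 CPM in WT and 12.1 CPM in KO (0.455, 0.384 to 0.540). In activated barcodes Psmg2 was at 70.7 and 14.4 CPM (0.204, 0.165 to 0.251). Adrm1, the ubiquitin receptor of the cap that the symbol rule does not reach, was at 69.3 and 101 CPM (1.45, 1.34 to 1.58). The activator genes Psme1 and Psme2, which are interferon-induced, were higher by 1.37- and 1.56-fold, and the inhibitor gene Psmf1 by 1.38-fold. Psme4, encoding the activator PA200, was lower (0.645), as were Ddi2, the protease that activates the transcription factor of the proteasome genes (0.716), the deubiquitinase gene Usp14 (0.778) and the ligase gene Ube3c (0.796). Nfe2l1, which encodes that transcription factor, was at 48.4 and 41.2 CPM (0.851, 0.763 to 0.949). The resting values here pool clusters 1 and 6. In cluster 1 alone, without the interferon-led cluster 6, 8 of the 37 genes were higher and 6 lower (21.6% and 16.2%). Of all genes there, 7.70% were higher and 23.9% lower. In the activated cluster relative to resting, 15 of these 37 genes were higher and 6 lower in WT, beside 29.6% and 36.1% of all genes. In KO 15 were higher and 2 lower, beside 26.0% and 34.2%.

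Per barcode, the proteasome genes are sparse. After thinning every resting barcode to 1000 UMIs, which left out 109 WT and 160 KO barcodes of fewer UMIs, a barcode held a mean of 5.17 proteasome UMIs in WT (SD 2.43 over 2659 barcodes) and 6.15 in KO (SD 2.79 over 5050 barcodes). The SD here is over barcodes of 1 library and is no replicate error. In activated barcodes the means were 7.80 and 8.55, in effector barcodes 6.37 and 7.18, in cluster 5 7.58 and 7.71, and in cluster 7 8.52 and 8.64. The rise from resting to activated barcodes was thus seen at equal depth in both libraries. A median of 4 of the 37 genes was detected per resting barcode in WT and 5 in KO. Psma7 had a UMI in 36.3% of thinned WT barcodes and 39.8% of KO barcodes, Psmb5 in 16.8% and 23.2%, Psmd3 in 5.45% and 9.29%, and Psmd12 in 11.5% and 8.34%. Before thinning, these shares were 74.1% and 77.2%, 51.5% and 58.9%, 21.2% and 28.9%, and 36.8% and 27.5%. Both scales order the libraries in the same way for the 4 genes.

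Resting barcodes were also compared within bands of depth, a split added after the data were seen. The median KO to WT ratio was log2 0.35 from 1000 to 2500 UMIs, 0.24 from 2500 to 4000, 0.18 from 4000 to 6000 and 0.24 above 6000, while the median of all genes stayed between -0.03 and 0.04. Psmd3 was higher by log2 0.48 to 0.74 and Psmd12 lower in KO in each band, with log2 ratios from -0.51 to -0.46. Psmd1 had log2 ratios from -0.33 to -0.11.

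**Figure D5:**
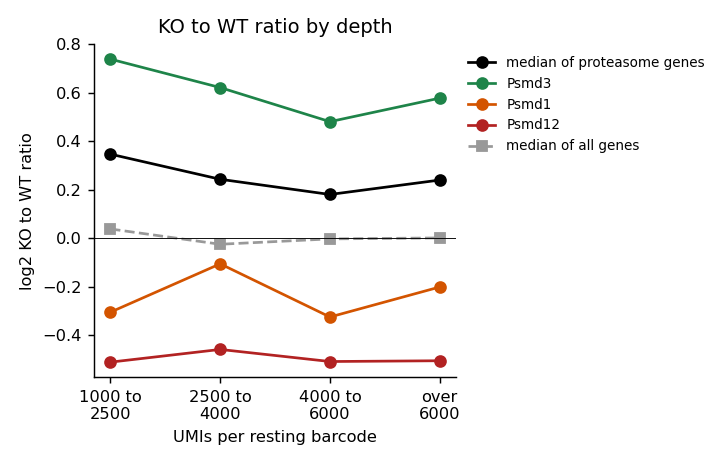
KO to WT ratio (log2) in resting barcodes by UMIs per barcode, for the median of the proteasome genes, for Psmd3, Psmd1 and Psmd12, and for the median of all genes (dashed). Each band holds 386 to 915 WT and 890 to 1566 KO barcodes. The proteasome median lies between 0.18 and 0.35 in all 4 bands and Psmd12 between -0.51 and -0.46.

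Other marker genes moved between the libraries in the same resting barcodes. The 8 effector markers summed to 510 CPM in WT and 133 CPM in KO, with 0 of 8 higher in KO. The 8 activated markers summed to 881 and 1121 CPM, with 8 of 8 higher, and the 8 cycling markers to 294 and 285 CPM. Globin and other erythroid markers summed to 512 and 1114 CPM, with 7 of 8 higher, and neutrophil markers to 376 and 246 CPM, with 0 of 8 higher. None of the markers of these 5 lists was at 0 in either library. B cell markers summed to 24.5 and 20.2 CPM and macrophage markers to 5.55 and 4.38 CPM, with 1 marker of each list at 0 in WT. In the other states the effector markers also summed lower in KO, at 897 and 140 CPM in activated barcodes (0 of 8 higher), 3802 and 2645 CPM in effector barcodes (1 of 8 higher) and 3460 and 423 CPM in cluster 7 (0 of 8 higher). Erythroid markers summed to 392 and 835 CPM, 385 and 969 CPM, and 320 and 778 CPM in the same order, with 5, 8 and 7 of 8 higher. Resting markers summed to 669 and 1153 CPM in activated barcodes, with 8 of 8 higher, and cycling markers to 2157 and 3392 CPM in cluster 7, with 6 of 8 higher. The part of these marker differences in the proteasome ratios was not tested.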

How the data were processed

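Per the labels and the study's methods, spleen YFP+7AAD- cells (with a CD4+ gate, per the methods) were sorted and sequenced as 1 10x Chromium library per genotype. The submitters' processing notes name Cell Ranger 5.0.1 and mm10, and the deposited files hold raw UMI counts of 32285 genes per barcode, made by the authors. From these, barcodes with under 300 genes or over 5% mitochondrial UMIs were left out. Doublets were scored with Scrublet in scanpy 1.11.5, and the top-scoring 5% of all WT and 8% of all KO barcodes were removed. These shares follow from the study's doublet counts, and its methods text assigns the same 2 rates to the genotypes the other way round. Counts were scaled to 10000 per barcode and logged. 2000 variable genes were taken without the proteasome, pathway and marker genes (173 genes), and 30 components (scikit-learn 1.9.0), 20 neighbours and Leiden clustering at resolution 0.5 (igraph 0.11.9) gave 15 clusters. Clusters were named from fixed marker lists, by a naming rule set after the data were seen.

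UMIs were summed per library and cluster (numpy 2.4.6, scipy 1.17.1), given as CPM with exact Poisson 95% intervals, and compared as ratios with exact conditional binomial 95% intervals, with 0.5 UMIs added for log2 values. Shares were thinned to 1000 UMIs. The ratio step was tested on simulated Poisson counts, which hold no spread between barcodes, mice or libraries. Genes were named by role, catalytic function, most and fewest UMIs, and the 5 highest and lowest ratios, and the other pathway genes came from a list of 40, of which Paaf1 and AI314180 were not among the feature symbols. The members and lists were chosen with earlier results of these data known. Alternatives tried were other scalings, filters, doublet handling, count minimums, folds, resolutions and depths.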

Additional observations from a re-analysis of the deposited data

Results flagged for a closer look

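For 6 proteasome genes the KO to WT ratio had opposite signs in 2 Treg clusters, with the counting intervals on either side of 1. The search took the highest and lowest such ratio of each proteasome gene over the Treg states. It was not run over all genes, so the count of 6 has no share of all genes beside it. These differences between clusters were not tested, since each rests on 1 library per genotype. Against cluster 5, Psma7 differed by 0.25 on the log2 scale (0.18 in resting barcodes and -0.07 in cluster 5), Psmd8 by 0.33 (0.22 and -0.11), Psma4 by 0.26 (0.10 and -0.16) and Psma3 by 0.35 (0.25 and -0.10). Psmb4 differed by 0.31 between activated barcodes (0.20) and cluster 5 (-0.11). Psmd13, a lid subunit, differed by 0.43 between resting barcodes (0.21) and cluster 7 (-0.21). In cluster 5, Psmd13 had a log2 ratio of -0.06 with an interval of -0.15 to 0.04. Erythroid markers in cluster 5 summed to 294 CPM in WT and 1900 CPM in KO and effector markers to 2163 and 225 CPM. The part of these marker differences was not tested.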

How the results depend on the processing

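Of 113 alternative values for the 10 main results, 95 stayed within set bounds and 18 moved beyond them. For a median, the bounds were the medians of the single genes' lower and upper 95% limits, which are not the error of that median. For a catalytic ratio they were its 95% interval, and for a count a change of up to 1.5 times. Of the medians, 0 changed sign, whereas counts and catalytic ratios have no sign to change. The median log2 KO to WT ratio of resting barcodes (0.22) ranged from 0.13 at Leiden resolution 1.0 to 0.35 in barcodes of 1000 to 2500 UMIs. The number higher there (8) became 15 with median-of-ratios scaling, 3 at resolution 1.0 and 0 at 1.5-fold, and the number lower (1) became 2 at resolution 1.0 and 0 at 1.5-fold. The T-lineage median (0.09) became 0.14 with haemoglobin, mitochondrial and ribosomal protein genes out of the total, 0.15 with median-of-ratios scaling, 0.15 with the mean of single-barcode CPM and 0.17 after thinning to 1000 UMIs. The activated to resting median in KO (0.61) became 0.44 after thinning and 0.77 at resolution 1.0. For clusters high in cell-cycle genes, the median to resting in WT (0.70) became 0.60 with the reduced total and 0.54 at resolution 0.3, and in KO (0.53) it became 0.43 with the reduced total, 0.44 after thinning and 0.72 at resolution 1.0. The causes were not tested.

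Shares of barcodes with a UMI were lower after thinning to 500 UMIs, as thinning makes them, with Psmd12 at 5.92% in WT and 4.49% in KO. The depth bands and the use of cluster 1 alone were chosen after seeing the data. No paired analysis was possible because each genotype has 1 library, and for the same reason no library could be left out.

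The main limit is that 1 library per genotype leaves genotype, mouse, sort and library preparation together, so they cannot be told apart. The intervals cover counting error only. Psma8 and Psmb11 had under 10 UMIs in resting barcodes of either library, too few for a ratio. The effector comparison rests on 110 KO barcodes.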

Other observations

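Proteasome genes were also present outside the barcodes described above. In barcodes with 5 to 10% mitochondrial UMIs, which were left out, they stood at 5292 CPM of the non-mitochondrial UMIs in WT (2758 barcodes) and 6219 in KO (2269 barcodes). Above 10% the values were 5587 (3710 barcodes) and 6003 (2095 barcodes), and in kept barcodes 7170 and 7487. The KO value was the larger one in each class.

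Across other lineages of the same sort, the summed CPM of the proteasome genes was highest in the clusters of early forms and lowest in those of late forms. The erythroid-like cluster 9, led by Rhd, Car1 and Klf1, had a summed level of 7985 CPM in WT and 7290 CPM in KO. The globin-led erythroid-like cluster 11, in which haemoglobin genes took 65.9% and 67.4% of UMIs, had 1719 and 1940 CPM. These haemoglobin UMIs are part of the total that CPM scales to, and the level without them was not taken. The neutrophil-like cluster 12, led by the primary granule genes Elane, Prtn3 and Mpo, had 7438 and 7287 CPM, and cluster 13, led by the later granule genes Ngp, Camp and Ltf, had 3355 and 3465 CPM. Relative to resting Treg-like barcodes, the median log2 ratio in cluster 13 was -0.65 in WT and -0.91 in KO. For all genes the same median was -0.92 in WT and -0.67 in KO. The proteasome genes thus lay above the middle of all genes in WT and below it in KO. The 8 neutrophil markers summed to 299663 CPM in WT and 259163 CPM in KO in cluster 13, and their part in these levels was not tested. The B cell-like cluster 14, of 43 and 30 barcodes, had 5429 and 6181 CPM.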
